A study of Mus musculus with 8 samples.

Results

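The genes described here are 10 core genes of the Notch pathway, namely the 4 receptors Notch1, Notch2, Notch3 and Notch4, the 3 ligands Dll1, Jag1 and Jag2, and the 3 target genes Hes1, Hey1 and Heyl. They were taken by symbol from 23420 gene symbols counted by RNA-seq in 8 libraries of mouse embryonic fibroblasts (MEFs). All 10 had an entry in every library, and all 10 passed the filter on low counts. They were chosen by pathway membership with their counts in these same 8 libraries, and so their levels and genotype differences, in view. The differences between genotypes are therefore given as a description, and no p-value is read from them.

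The 4 Neat1 null libraries came from MEFs lacking Neat1 (Neat1-/-), the long noncoding RNA on which nuclear paraspeckles form, and the 4 wild-type libraries from MEFs with Neat1 intact. All cells of both groups also expressed the adenoviral oncoprotein E1A and the activated Ras protein HRasV12, and the strain background was C57BL6/N. The labels give neither the Neat1 allele nor the way the oncogenes were delivered, and nothing in them says that replicates were independent isolates of MEFs, so p-values measure only the spread between these libraries, which may be partly technical. The series asks which genes differ between such cells with and without Neat1.

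Notch receptors are single-pass membrane proteins that bind Delta-like and Jagged ligands on neighbouring cells. Binding exposes the receptor to cleavage by the metalloprotease Adam10 and then by the gamma-secretase complex. The freed intracellular part enters the nucleus, joins the DNA-binding protein Rbpj and a Mastermind-like coactivator, and turns on target genes such as the Hes and Hey repressors. In fibroblasts and other mesenchymal cells the pathway is known for roles in cell fate and in smooth muscle and pericyte differentiation.

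The libraries held 19651035 to 38950207 counts assigned to genes in the Neat1 null group and 31651625 to 37069334 in the wild-type group. Neat1 itself had 6.92, 11.3, 7.90 and 6.12 CPM (the count of the gene as a share of the library on the usual per-million-read scale, with TMM scaling) in Neat1 null libraries 1 to 4, against 138, 588, 753 and 1320 CPM in wild-type libraries 1 to 4. It fell in Neat1 null cells as labelled (log2 fold change -6.44, SE 0.66, edgeR adjusted p = 0.000762), with no overlap. Neat1 null libraries 1 and 3 stood farthest from wild-type on the first principal component, at 103 and 91.1 against 16.9 and 28.4 for Neat1 null libraries 2 and 4. Xist and 4 Y-linked genes put Neat1 null libraries 1, 2 and 4 as male and Neat1 null library 3 and all 4 wild-type libraries as female, so sex and genotype can be told apart only through 1 library. RNA was total RNA in a strand-preserving TruSeq preparation. The summed level of 8 fibroblast genes was 2587 to 4031 CPM in Neat1 null and 1826 to 3399 CPM in wild-type libraries. Of these, Vim had 1891 to 3263 CPM in Neat1 null and 1233 to 2184 CPM in wild-type libraries, whereas the collagen gene Col1a1 had 1.29 to 5.75 and 2.98 to 12.4 CPM, low for a gene that defines fibroblasts. The fibroblast receptor gene Pdgfra fell to 3.92 to 10.9 CPM in Neat1 null, against 40.9 to 148 CPM in wild-type libraries, and its part in the differences below was not tested. Of 4 leukocyte genes, Ptprc had 0 counts in every library, and Cd68, the only 1 tested, fell to 3.68 to 18.3 CPM in Neat1 null, against 8.88 to 102 CPM in wild-type libraries. Of 7 neural genes, Dcx and Sox1 had 0 counts, while the list summed to 74.3 to 584 CPM in Neat1 null and 182 to 348 CPM in wild-type libraries, mostly Nes. The myoblast genes Myod1 and Myf5 had 0 counts. The 4 epithelial genes summed to 249 to 3181 CPM in Neat1 null and 194 to 633 CPM in wild-type libraries, with 3144 CPM of Krt18 in Neat1 null library 1, and Epcam had 34.0 to 64.6 and 26.9 to 57.1 CPM.

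Of the 10 Notch genes, 5 lay past the threshold (edgeR quasi-likelihood test, adjusted p under 0.05 over all genes) and all 5 were lower in Neat1 null cells: Notch1, Notch3, Notch4, Dll1 and Jag1. Over all 13316 genes tested 17.7% were past the threshold, 7.72% on the lower side and 9.97% on the higher side. No Notch gene was past it on the higher side. By role, 3 of 4 receptors, 2 of 3 ligands and 0 of 3 targets were past the threshold. The DESeq2 test, under which 24.7% of all genes tested were past the threshold, gave the same 5 genes. The median log2 fold change (Neat1 null minus wild-type) was -1.47 over the receptors, -1.83 over the ligands and 0.82 over the targets, beside -0.06 over all genes tested. The ligand and target medians are the single values of Jag1 and Hes1. The ligands ranged from -3.58 to -0.08 and the targets from -0.54 to 2.02. With upper-quartile scaling the median of all genes was -0.239, and the split over all genes turned to 1036 higher and 1428 lower, beside 1328 and 1028 with TMM. The same 5 Notch genes were past the threshold in that fit too, beside 18.5% of all genes. In bulk RNA, fewer cells that express a gene and less RNA per cell cannot be told apart.

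**Figure D1:**
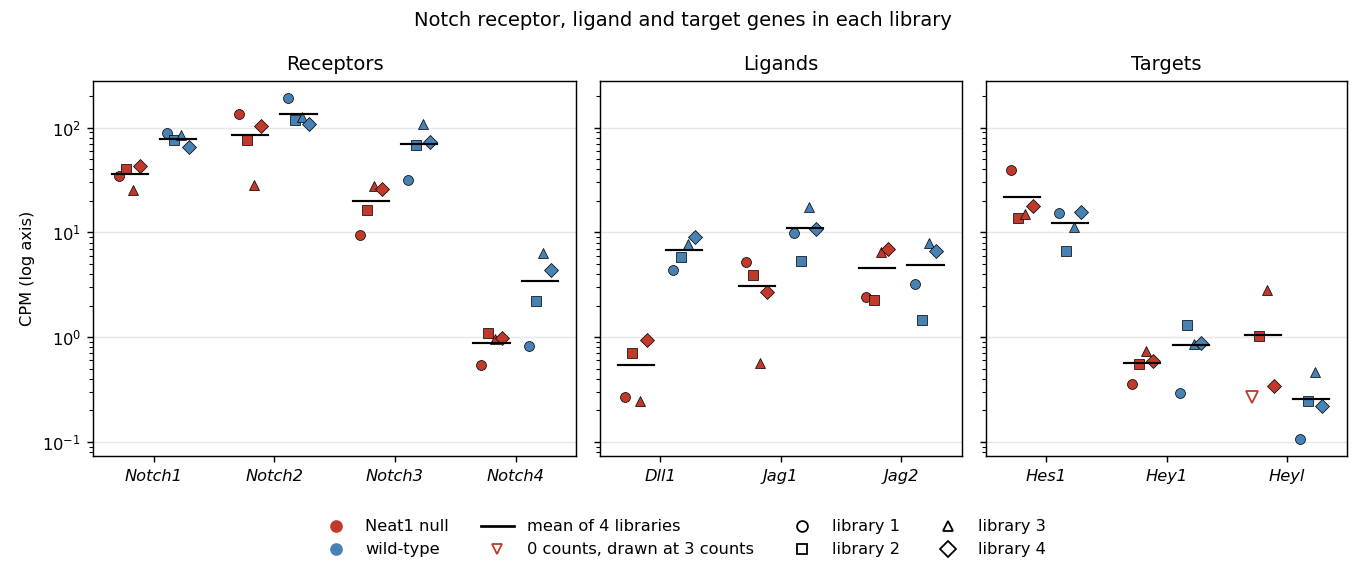
CPM of each Notch gene (log axis) in the 4 Neat1 null libraries (red, left of each pair) and the 4 wild-type libraries (blue, right), with symbols for the library number and a line at the group mean. For Notch1, Notch3, Dll1 and Jag1 every Neat1 null library lies below every wild-type library, and an open triangle marks 0 counts, drawn at the level of 3 counts.

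Notch1, the receptor gene on chromosome 2 (GRCm38, 26457903 to 26516663, minus strand), had 34.6, 40.2, 25.5 and 43.4 CPM in Neat1 null libraries 1 to 4, against 88.2, 75.6, 85.7 and 65.1 CPM in wild-type libraries 1 to 4. All 4 Neat1 null libraries lay below all 4 wild-type libraries, and the spread within each group was narrow, with 1.70-fold between the Neat1 null extremes and 1.35-fold between the wild-type extremes. The log2 fold change was -1.13 (SE 0.32), which left 45.7% of the wild-type mean.

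Notch3, which in mice and humans is best known as the receptor of smooth muscle cells and pericytes (chromosome 17, 32120820 to 32166852, minus strand), had 9.43, 16.4, 27.7 and 25.8 CPM in Neat1 null libraries 1 to 4, against 31.5, 68.3, 108 and 72.7 CPM in wild-type libraries 1 to 4. The groups did not overlap, although the highest Neat1 null library (27.7 CPM) came close to the lowest wild-type library (31.5 CPM). The mean was 19.8 ± 8.52 CPM in Neat1 null and 70.0 ± 31.1 CPM in wild-type libraries (SD, n = 4 each), a log2 fold change of -1.82 (SE 0.43).

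Notch4, a receptor known mainly from endothelium (chromosome 17, 34564268 to 34588503, plus strand), was the scarcest receptor, with 0.539, 1.09, 0.952 and 0.973 CPM in Neat1 null libraries 1 to 4, against 0.822, 2.21, 6.29 and 4.36 CPM in wild-type libraries 1 to 4. These levels rest on 6, 37, 27 and 31 counts in Neat1 null and 31, 100, 270 and 179 counts in wild-type libraries. The groups overlapped through wild-type library 1, and the log2 fold change of -1.92 (SE 0.63) was carried mostly by wild-type libraries 3 and 4. Of 8 endothelial marker genes, 5 stayed under 1 CPM in every library, Pecam1 and Tie1 among them. Their summed level was 13.3 to 40.5 CPM in Neat1 null and 38.9 to 85.5 CPM in wild-type libraries, and 0 of the 4 tested passed the threshold. Flt1 had 11.9 to 38.2 CPM in Neat1 null and 33.2 to 43.3 CPM in wild-type libraries, and Emcn had 16.7 and 39.7 CPM in wild-type libraries 1 and 3 and at most 0.0314 CPM in every other library. The part of such cells in the Notch4 difference was not tested.

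Notch2, the most abundant receptor (chromosome 3, 98013527 to 98150361, plus strand), had 136, 76.7, 28.4 and 103 CPM in Neat1 null libraries 1 to 4, against 191, 118, 125 and 108 CPM in wild-type libraries 1 to 4. Only Neat1 null library 3 lay far below the wild-type range, while Neat1 null library 1 lay inside it. The log2 fold change of -0.66 (SE 0.43) was not past the threshold.

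Of all members, 4 had groups that did not overlap, Notch1, Notch3, Dll1 and Jag1, each lower in Neat1 null cells. Over all genes tested 11.0% did so on the lower side.

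The ligand genes were scarcer per kb of exon than Notch1, Notch2 and Notch3 in both groups' means. Dll1, a Delta-like ligand that in mice is needed for somite and neural patterning (chromosome 17, 15367354 to 15376872, minus strand), had the largest difference of all 10 genes. It had 0.270, 0.704, 0.247 and 0.941 CPM in Neat1 null libraries 1 to 4, against 4.37, 5.77, 7.74 and 8.98 CPM in wild-type libraries 1 to 4. Behind these values were 3, 24, 7 and 30 counts in Neat1 null libraries and 165, 261, 332 and 369 counts in wild-type libraries. The highest Neat1 null library stayed below the lowest wild-type library, 8.05% of the wild-type mean remained, and the log2 fold change was -3.58 (SE 0.58).

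Jag1, a Jagged ligand of fibroblasts, smooth muscle and epithelia (chromosome 2, 137081456 to 137116644, minus strand), had 5.21, 3.90, 0.564 and 2.70 CPM in Neat1 null libraries 1 to 4, against 9.84, 5.30, 17.6 and 10.9 CPM in wild-type libraries 1 to 4. The groups did not overlap, but Neat1 null library 1 (5.21 CPM) and wild-type library 2 (5.30 CPM) nearly met. The Neat1 null libraries differed among themselves by 9.23-fold, and the log2 fold change was -1.83 (SE 0.59).

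Jag2, the other Jagged ligand (chromosome 12, 112907819 to 112929776, minus strand), had 2.43, 2.26, 6.56 and 6.97 CPM in Neat1 null libraries 1 to 4, against 3.23, 1.46, 7.99 and 6.62 CPM in wild-type libraries 1 to 4. In both groups libraries 3 and 4 were high and libraries 1 and 2 low, and the groups overlapped throughout. Its log2 fold change was -0.08 with an SE of 0.58, so a difference of the size seen for Notch1 lies within 2 standard errors of it.

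The ligands separated in these data into 2 with a large difference, Dll1 and Jag1, and 1 not past the threshold, Jag2. Their promoters and that of Notch3 are shown. Each is 250 bases before to 50 bases after a RefSeq transcription start (GRCm38.p6), 5′ to 3′ on the gene's strand. For Dll1 the more upstream of its 2 listed starts is shown. Capitals mark GC boxes (GGGCGG, the Sp1 motif) and N-boxes (CACNAG, a motif bound by Hes repressors), each searched on both strands with overlapping matches counted separately.
Dll1, chr17:15376883-15377182, minus strand: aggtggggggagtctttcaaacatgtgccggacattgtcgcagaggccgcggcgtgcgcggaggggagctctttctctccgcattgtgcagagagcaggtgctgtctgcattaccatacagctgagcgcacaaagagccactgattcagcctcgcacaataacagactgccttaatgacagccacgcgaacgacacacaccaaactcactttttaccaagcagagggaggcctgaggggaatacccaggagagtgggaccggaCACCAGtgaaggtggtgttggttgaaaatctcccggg
Jag1, chr2:137116471-137116770, minus strand: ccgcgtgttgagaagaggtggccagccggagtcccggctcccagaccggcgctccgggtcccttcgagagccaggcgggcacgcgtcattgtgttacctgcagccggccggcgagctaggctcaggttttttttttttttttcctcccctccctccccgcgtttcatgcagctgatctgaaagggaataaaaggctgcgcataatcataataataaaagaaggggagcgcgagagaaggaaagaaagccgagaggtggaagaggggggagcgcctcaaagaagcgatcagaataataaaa
Jag2, chr12:112929446-112929745, minus strand: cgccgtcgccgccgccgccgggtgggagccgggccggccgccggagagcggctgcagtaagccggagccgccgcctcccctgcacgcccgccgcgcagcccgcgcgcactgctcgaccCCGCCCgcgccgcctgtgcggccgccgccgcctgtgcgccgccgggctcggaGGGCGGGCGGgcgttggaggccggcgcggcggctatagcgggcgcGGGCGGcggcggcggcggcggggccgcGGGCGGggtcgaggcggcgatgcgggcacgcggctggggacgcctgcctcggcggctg
Notch3, chr17:32166841-32167140, minus strand: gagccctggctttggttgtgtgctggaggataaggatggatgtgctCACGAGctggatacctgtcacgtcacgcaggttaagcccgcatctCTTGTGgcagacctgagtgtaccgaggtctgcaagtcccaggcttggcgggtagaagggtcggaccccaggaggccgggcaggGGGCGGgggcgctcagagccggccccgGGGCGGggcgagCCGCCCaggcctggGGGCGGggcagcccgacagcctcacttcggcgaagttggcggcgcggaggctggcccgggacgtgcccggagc
GC boxes numbered 0 in the Dll1 and Jag1 windows, 5 in the Jag2 window and 4 in the Notch3 window, and 35.7% of all 32851 promoters of this length held at least 1. The share of G and C bases was 56.3% for Dll1, 55.7% for Jag1, 86.0% for Jag2 and 70.0% for Notch3. N-boxes numbered 1, 0, 0 and 2 in the same order, against 42.5% of all promoters with at least 1. The other Dll1 window, not shown, held 0 GC boxes and 0 N-boxes, and its share of G and C bases was 62.7%. The Notch1, Notch2 and Notch4 windows, also not shown, held 5, 7 and 0 GC boxes and 3, 1 and 0 N-boxes. The Dll1 window shown lies wholly outside the gene span given above. The Rbpj core motif TGGGAA, on either strand, was in none of the 8 windows listed for the 7 receptor and ligand genes, and 25.6% of all promoters held it. These are counts of letters in short windows, and they were not compared with the fold changes by any test. Promoters of Hes1, Hey1 and Heyl are not shown.

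None of the 3 target genes was past the threshold. Hes1, a repressor of the basic helix-loop-helix class and the classical Notch target (chromosome 16, 30064384 to 30067796, plus strand), had 39.8, 13.9, 15.0 and 17.8 CPM in Neat1 null libraries 1 to 4, against 15.2, 6.58, 11.2 and 15.7 CPM in wild-type libraries 1 to 4. Neat1 null library 1 alone was far above the rest, and the other 3 Neat1 null libraries lay within or just above the wild-type range. The log2 fold change was 0.82 (SE 0.43), and 0.36 without Neat1 null library 1. That library also had 123 CPM of the smooth muscle gene Acta2 and 107 CPM of Tagln, against 1.31 to 1.57 and 3.74 to 5.68 CPM in the other Neat1 null libraries and 1.11 to 3.65 and 1.02 to 4.24 CPM in wild-type libraries. The summed level of the 8 smooth muscle and pericyte markers was 27.6 to 268 CPM in Neat1 null and 23.1 to 56.9 CPM in wild-type libraries. The highest sum was mostly Acta2 and Tagln of Neat1 null library 1. In that library Cnn1 (2.79 CPM) also lay above the wild-type range. Myh11, Des and Mcam (0.449, 14.6 and 20.3 CPM) lay inside it, and Rgs5 and Cspg4 (0 and 0.359 CPM) lay below it. The link of these markers to the Hes1 level was not tested.

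Hey1, a related repressor induced by Notch in vessels and heart (chromosome 3, 8663359 to 8667256, minus strand), stayed near 1 CPM or below. It had 0.359, 0.557, 0.741 and 0.596 CPM in Neat1 null libraries 1 to 4, against 0.292, 1.30, 0.862 and 0.876 CPM in wild-type libraries 1 to 4. Wild-type library 1 was the lowest and wild-type library 2 the highest of all 8, so the groups overlapped, and the log2 fold change was -0.54 (SE 0.59).

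Heyl, the third target (chromosome 4, 123233556 to 123249875, plus strand), had 0, 35, 79 and 11 counts in Neat1 null libraries 1 to 4, against 4, 11, 20 and 9 counts in wild-type libraries 1 to 4. As levels these were 0, 1.03, 2.79 and 0.345 CPM in Neat1 null and 0.106, 0.243, 0.466 and 0.219 CPM in wild-type libraries. The count of 0 in Neat1 null library 1 allows a level of up to 0.269 CPM (3 counts, counting error only), which is within the wild-type range. The log2 fold change of 2.02 (SE 0.89) was 0.93 without Neat1 null library 3, and was not past the threshold. Heyl reached the filter level in 3 Neat1 null libraries and 1 wild-type library, so it was kept mainly through the group where it was higher. Dll1 reached that level in 2 Neat1 null and 4 wild-type libraries, and Notch4 and Hey1 in 3 and 4, so they too were kept through the group where they were higher.

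**Figure D2:**
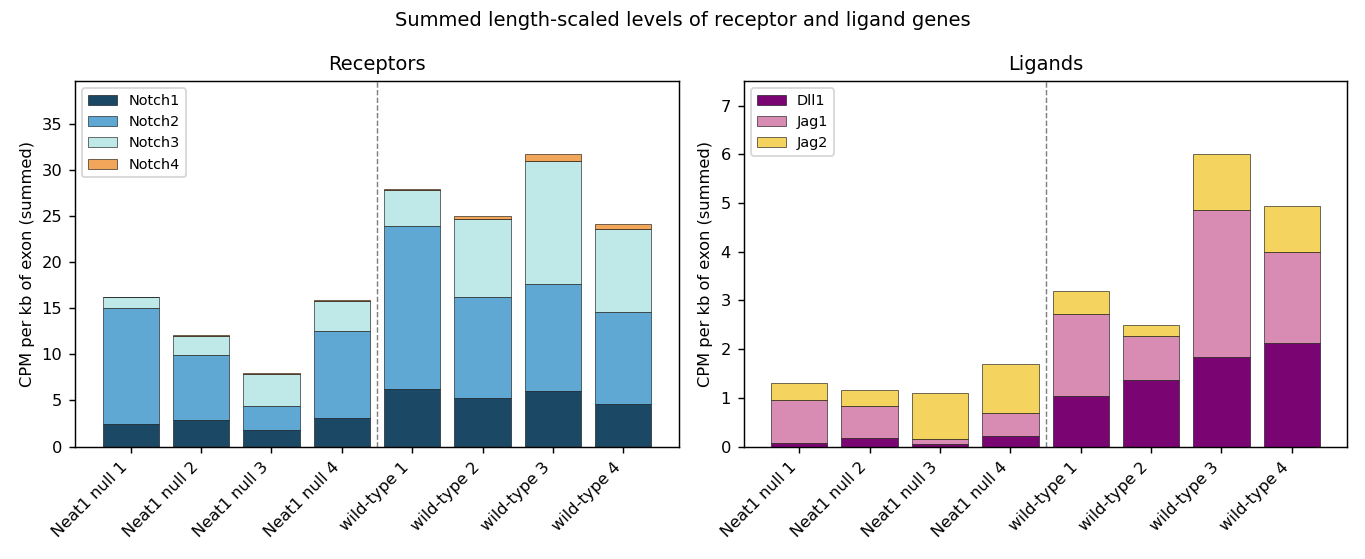
Levels of the receptor genes (left panel) and ligand genes (right panel) in CPM per kb of exon, stacked in 1 bar per library, with the 4 Neat1 null libraries left of the dashed line and the 4 wild-type libraries right of it. The receptor sum is 7.98 to 16.3 in Neat1 null and 24.2 to 31.7 in wild-type libraries, and Dll1 is a thin layer of each Neat1 null ligand bar.

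Divided by exon length, the levels can be set beside each other. In Neat1 null libraries the order by mean CPM per kb was Hes1 (10.6), Notch2 (7.97), Notch1 (2.52), Notch3 (2.45), Jag2 (0.654), Jag1 (0.531), Heyl (0.203), Hey1 (0.173), Dll1 (0.128) and Notch4 (0.110). Among neighbours in that order, the ranges of the libraries were apart only between Notch3 and Jag2. In wild-type libraries it was Notch2 (12.6), Notch3 (8.66), Hes1 (5.98), Notch1 (5.53), Jag1 (1.87), Dll1 (1.59), Jag2 (0.693), Notch4 (0.424), Hey1 (0.255) and Heyl (0.0506). There the ranges of neighbours were apart only between Notch1 and Jag1.

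The summed receptor level was 16.3, 12.1, 7.98 and 15.9 CPM per kb in Neat1 null libraries 1 to 4, against 27.9, 25.0, 31.7 and 24.2 in wild-type libraries 1 to 4. Notch1 took a like share of that sum in both, 20.0 ± 3.82% in Neat1 null and 20.3 ± 1.63% in wild-type libraries (SD, n = 4 each). Notch3 took 7.17, 16.7, 43.0 and 20.1% in Neat1 null libraries 1 to 4, against 13.9, 33.8, 41.9 and 37.2% in wild-type libraries 1 to 4, so that its share varied as much within a group as between them.

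The ligand sum was 1.31, 1.16, 1.10 and 1.69 CPM per kb in Neat1 null libraries 1 to 4, against 3.19, 2.49, 6.00 and 4.95 in wild-type libraries 1 to 4. Dll1 made up 4.89 to 14.4% of it in Neat1 null libraries and 30.6 to 55.0% in wild-type libraries. Jag2 exceeded Dll1 in all 4 Neat1 null libraries, by 1.94- to 16.1-fold, and in 0 of 4 wild-type libraries, where the ratio was 0.153 to 0.626. This ratio is formed within a library and does not depend on its scaling. It largely restates the Dll1 difference and is not corrected for the shift with gene length described below. In Neat1 null libraries 1 to 4 it rests on 3, 24, 7 and 30 counts of Dll1. Hes1 exceeded Notch1 in 4 of 4 Neat1 null libraries, by 2.41- to 8.04-fold, and in 2 of 4 wild-type libraries, where the ratio was 0.608 to 1.69.

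Receptor genes are long, and gene length moved with genotype over the whole data set. The exon length was 14232, 10782, 8089 and 8061 bases for Notch1, Notch2, Notch3 and Notch4, 4219, 5827 and 6965 bases for Dll1, Jag1 and Jag2, and 2037, 3265 and 5113 bases for Hes1, Hey1 and Heyl. The change in log2 CPM per doubling of exon length, relative to the mean of all libraries, was -0.314, 0.00725, -0.477 and -0.0533 in Neat1 null libraries 1 to 4, against 0.212, 0.135, 0.245 and 0.244 in wild-type libraries 1 to 4. With each library corrected for gene length and GC content, the log2 fold change of Notch1 was -0.61 (SE 0.27), that of Notch2 -0.25 (SE 0.42), that of Notch3 -1.60 (SE 0.36) and that of Notch4 -1.62 (SE 0.59). Dll1 had -3.62 (SE 0.58), Jag1 -1.62 (SE 0.57) and Jag2 -0.01 (SE 0.53) in that fit. The targets Hes1, Hey1 and Heyl had 0.36 (SE 0.39), -0.73 (SE 0.53) and 1.87 (SE 0.88). The correction thus brought Hes1 and Notch1, the shortest and the longest of the 10 genes, closer to each other, and their ratio per kb given above is not corrected for it. Dll1 and Notch3 then remained past the threshold, 2 of 10 members, beside 12.6% of all genes tested in that fit and 4.90% on the lower side.

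**Figure D3:**
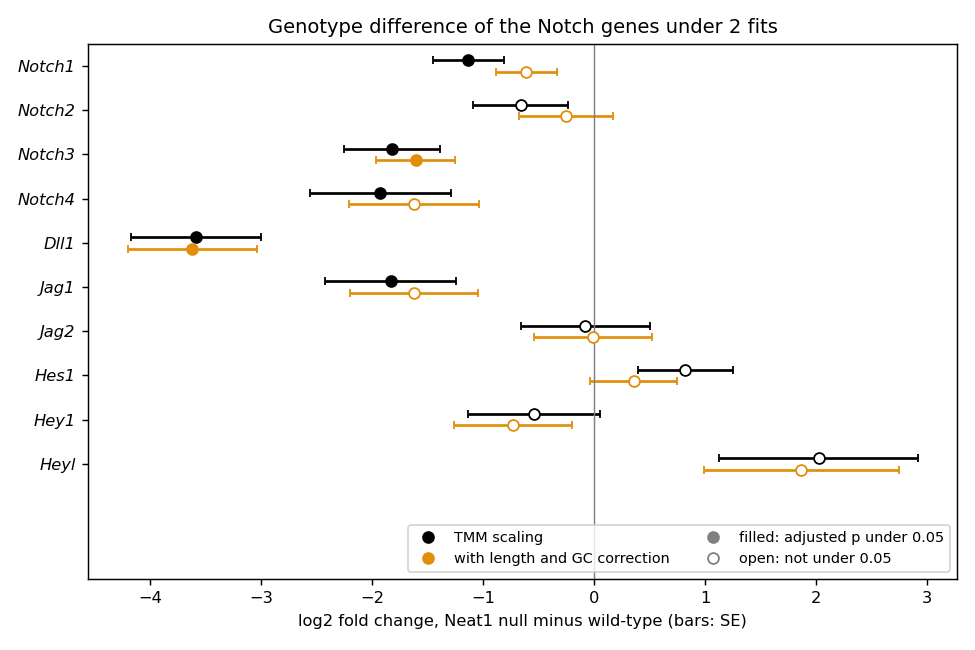
Log2 fold change of each Notch gene (Neat1 null minus wild-type, bars show the SE) with TMM scaling alone (black) and with the correction for gene length and GC content (orange), filled where the adjusted p was under 0.05. Dll1 has nearly the same value in both, -3.58 and -3.62, while that of Notch1 is -1.13 and -0.61.

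The calls also depended on single libraries. With any 1 library left out, the log2 fold change ranged from -1.23 to -0.98 for Notch1, from -2.05 to -1.53 for Notch3, from -2.23 to -1.45 for Notch4, from -3.98 to -3.31 for Dll1 and from -2.18 to -1.46 for Jag1. Dll1 was past the threshold in 6 of those 8 fits, Notch3 in 5, Notch1 in 4, Jag1 in 3 and Notch4 in 1. Without wild-type library 4 or without Neat1 null library 3 none of the 10 was past it in edgeR. Without wild-type library 3 only Dll1 was. Over all genes the share called was 0.0820%, 0.0950% and 0.135% in those 3 fits. At an unadjusted p under 0.05, 5 members were lower without wild-type library 4, beside 1575 of all 13409 genes. Without Neat1 null library 3 it was also 5 members, beside 2091 of all 13686 genes. Without both Neat1 null libraries 1 and 3 again 0 members passed the adjusted threshold, with 0.0497% of all genes called. There 4 members were lower at an unadjusted p under 0.05, beside 1880 of all 14097 genes. Dll1, Notch3, Notch4, Jag1 and Notch1 then had log2 fold changes of -3.04, -1.75, -1.75, -1.73 and -0.92.

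The other genes of the pathway were listed by role, 52 symbols in all, of which 46 passed the count filter. Psenen rose in Neat1 null cells, Maml2 and Maml3 fell, and 43 did not pass the threshold. That is 3 of 46, beside 17.7% of all genes tested. The median log2 fold change of the 46 was -0.11, close to the -0.06 over all genes.

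Maml2, a Mastermind-like coactivator of the nuclear Notch complex, fell to 4.94, 6.01, 2.12 and 4.02 CPM in Neat1 null libraries 1 to 4, against 11.5, 18.0, 22.5 and 21.7 CPM in wild-type libraries 1 to 4. The groups did not overlap, and the log2 fold change was -2.11 (SE 0.43, edgeR adjusted p = 0.0180). It stayed past the threshold after the length and GC correction (-1.74, adjusted p = 0.0345).

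Maml3, its relative, fell to 9.89 ± 4.35 CPM in Neat1 null, against 24.3 ± 8.52 CPM in wild-type libraries (SD, n = 4 each), with an edgeR log2 fold change of -1.30 (SE 0.43, adjusted p = 0.0470). Neat1 null library 2 (15.1 CPM) exceeded wild-type library 1 (12.9 CPM), so the groups overlapped. The call ended with the length and GC correction (-0.86, adjusted p = 0.122). Maml1, the third member of that family, had 57.0 ± 18.0 CPM in Neat1 null and 74.9 ± 16.3 CPM in wild-type libraries (log2 fold change -0.39, SE 0.34, edgeR adjusted p = 0.425).

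Psenen, the smallest subunit of gamma-secretase, rose to 86.1, 46.9, 117 and 42.0 CPM in Neat1 null libraries 1 to 4, against 20.2, 35.2, 27.6 and 26.4 CPM in wild-type libraries 1 to 4. The groups did not overlap (log2 fold change 1.41, SE 0.39, edgeR adjusted p = 0.0259). With the length and GC correction it was 0.57 and no longer past the threshold (adjusted p = 0.128).

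Rbpj, the DNA-binding partner of cleaved Notch, had 77.3, 77.7, 22.7 and 76.1 CPM in Neat1 null libraries 1 to 4, against 108, 98.2, 207 and 170 CPM in wild-type libraries 1 to 4. Its groups did not overlap, yet the log2 fold change of -1.20 (SE 0.43) missed the threshold in edgeR (adjusted p = 0.0618) and passed it in DESeq2 (adjusted p = 0.0448) and with upper-quartile scaling (adjusted p = 0.0394). With the length and GC correction it was -0.36 (SE 0.29, edgeR adjusted p = 0.409). Adam10, the protease of the first ligand-induced cut, had 74.5 ± 28.4 CPM in Neat1 null and 138 ± 37.6 CPM in wild-type libraries (log2 fold change -0.88, SE 0.39, edgeR adjusted p = 0.116). Lfng, a Fringe glycosyltransferase that alters ligand choice of the receptors, had a log2 fold change of 0.91 (SE 0.51, edgeR adjusted p = 0.212). Calls of Maml2 and Psenen ended when library 3 of either genotype or the fourth wild-type library was left out, with edgeR adjusted p-values up to 0.0684 and 0.0890, and that of Maml3 in 6 of 8 such fits.

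**Figure D4:**
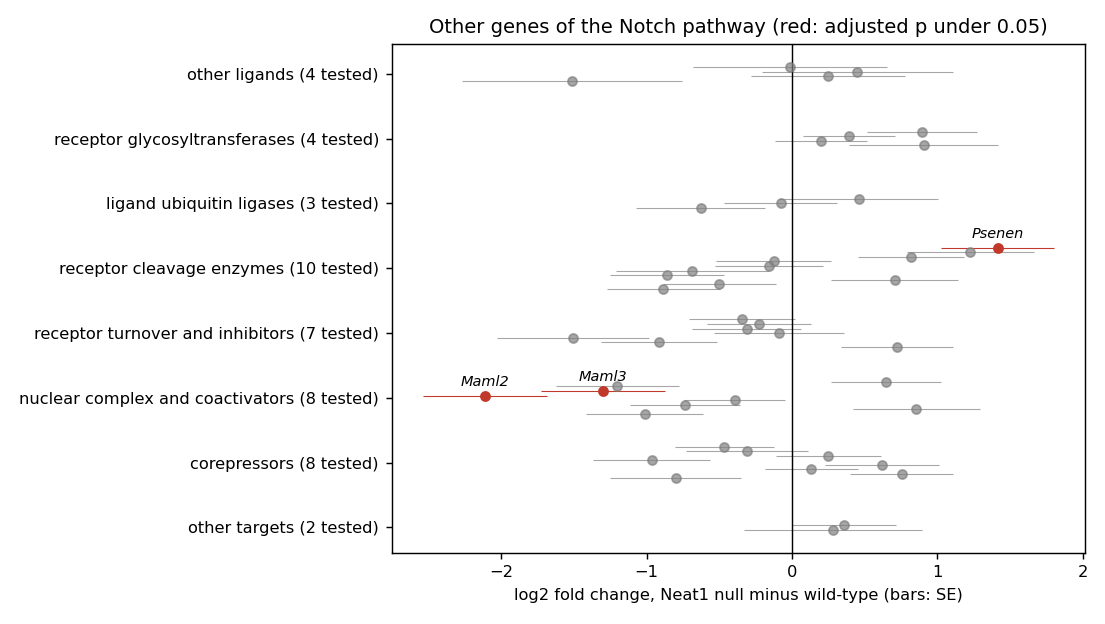
Log2 fold change (Neat1 null minus wild-type, bars show the SE) of the 46 other Notch pathway genes that passed the count filter, in rows by role, with genes of adjusted p under 0.05 in red. Psenen lies at 1.41, Maml3 at -1.30 and Maml2 at -2.11, and the other genes lie on both sides of 0.

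By role, 2 of 8 genes of the nuclear complex and its coactivators fell (median log2 fold change -0.88), beside 7.72% of all genes tested. Of the receptor cleavage genes 1 of 10 rose (median -0.14), beside 9.97% of all genes tested. With the length and GC correction 1 nuclear complex gene was called lower and 1 higher (median -0.41). In that fit 0 cleavage genes were called (median 0.03). Also tested were 4 other ligands, 4 glycosyltransferases, 3 ligand ubiquitin ligases, 7 receptor turnover genes, 8 corepressors and 2 other targets. None of these passed in edgeR with TMM scaling and all 8 libraries. An unadjusted p under 0.05 was met by 1, 2 and 2 glycosyltransferase, turnover and corepressor genes. Over all 13316 genes tested, 2480 met it on the higher side and 2309 on the lower side. Under other settings some genes passed the adjusted threshold. The turnover gene Dtx4 was lower past it in DESeq2 and with upper-quartile scaling. The turnover gene Dtx3 was so with the length and GC correction (log2 fold change -1.31, edgeR adjusted p = 0.0391). The nuclear complex gene Ep300 was lower past it with upper-quartile scaling. The cleavage gene Psen2 was higher past it in DESeq2 (log2 fold change 1.30, adjusted p = 0.0316). It was also called higher in edgeR without Neat1 null library 2 or 4, as was the glycosyltransferase gene Rfng without Neat1 null library 2. The ligand ubiquitin ligase gene Neurl1b had 0, 3, 3 and 1 counts in Neat1 null libraries 1 to 4. It had 3, 8, 84 and 86 counts in wild-type libraries 1 to 4, so the groups overlapped. It was under the count filter and was called lower by DESeq2 (adjusted p = 0.00200). In the length and GC fit the genes called were Dtx3, Maml2 and, on the higher side, the nuclear complex gene Snw1 (1.22, edgeR adjusted p = 0.0376). These were named after their values were seen. Among the other targets, Hes5 had 1 count over the 4 Neat1 null libraries and 0 over the 4 wild-type libraries, and Hey2 had 7 and 5 counts, so neither was tested.

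Genes outside the list with the most similar pattern over the 8 libraries, by Pearson's r of log2(CPM + 1) among 13306 genes, were Srrm2, a splicing factor gene, for Notch2 (r = 0.992), Tmc8 for Notch3 (r = 0.994), Greb1l for Notch1 (r = 0.975) and Cacna1g, a calcium channel gene, for Notch4 (r = 0.993). For the ligands they were Nhsl2 for Dll1 (r = 0.994), Ikbip for Jag1 (r = 0.990) and P4ha2, a collagen prolyl hydroxylase gene, for Jag2 (r = 0.938). For the targets they were Dok3 for Hes1 (r = 0.965), Gtpbp2 for Hey1 (r = 0.983) and Rtkn for Heyl (r = 0.962). These values describe 8 libraries that share depth, scaling and the genotype split, and each was the highest of many.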

How the data were processed

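RNA-seq libraries of MEFs (4 Neat1 null, 4 wild-type) were analysed from read counts per gene symbol, which the authors deposited unnormalised, 1 file per library. The submitters' processing notes name CASAVA 1.8, STAR, DESeq2 and the mm10 build. The read counter, its strand setting and its annotation are not given in the sources used here, so counts of Notch1, Notch3 and Dll1, which share exon sequence with a gene on the other strand, and of Notch2, which shares it with one on the same strand, are partly uncertain. The last 2 entries of each file name no gene (5.48% to 11.0% of counts outside genes in Neat1 null and 9.83% to 15.7% in wild-type libraries, 1.34% to 1.76% and 1.09% to 1.22% ambiguous) and were left out.

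Genes were filtered with filterByExpr (minimum count 10), scaled with TMM and tested with edgeR 4.0.16 in R 4.3.3 (robust quasi-likelihood F test, 2-sided, genotype as the only term, Benjamini-Hochberg over 13316 genes, threshold 0.05). The SE is the log2 fold change divided by the square root of F. Alternatives were RLE and upper-quartile scaling, no filter, DESeq2 1.42.0, each library left out, both Neat1 null libraries 1 and 3 left out, the replicate number as a block, and splines (5 degrees of freedom) on exon length and GC content as offsets. The fit was tested on simulated data of 13226 genes, with 50 genes changed at each of 4 sizes. It recovered 10% of those changed 2-fold, 52% at 4-fold, 88% at 8-fold and 90% at 16-fold. Of 122 calls, 1.64% were false in the simulation. The simulated counts varied independently for each gene, without shifts shared by a whole library. Far fewer genes were changed than were called in the real data. The shares recovered and false may thus differ in the real data. A gene not past the threshold may therefore still differ, above all by 2-fold or less. No 2 libraries of the same genotype were duplicates (lowest chi-square 59.3 times its degrees of freedom).

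Positions and exon lengths are from GENCODE M21 (GRCm38, the assembly of mm10); of 23420 symbols 21776 matched directly and 1277 through a synonym. Promoters are from RefSeq (GRCm38.p6). Members, lists and tests were chosen with earlier results of these data known. Named were all 10 members, Neat1, each other pathway gene past the threshold, Rbpj, Adam10, Lfng and Maml1, and the likest gene of each member; 1 further gene of this rule is not reported here. Other genes were named after their values were seen.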

Additional observations from a re-analysis of the deposited data

Results flagged for a closer look

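Among 36 groups of 4 values examined (18 named Notch pathway genes in each genotype), 2 held a library far from the other 3 by Dixon's criterion, which chance alone meets in about 1 of 20 groups. Hes1 had 39.8 CPM in Neat1 null library 1, against 13.9 to 17.8 CPM in the other 3 Neat1 null libraries. Rbpj had 22.7 CPM in Neat1 null library 3, against 76.1 to 77.7 CPM in the other 3.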

How the results depend on the processing

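The number of the 10 Notch genes past the threshold, 5 with TMM scaling, was 2 with the length and GC correction, 0 without both Neat1 null libraries 1 and 3, and 0 to 5 with 1 library left out. It was 4 with the replicate block, where Notch4 dropped out and 16.9% of all genes were called. With RLE scaling it was also 4, again without Notch4, and 18.1% of all genes were called. For the other pathway genes, 3 at first, it was 6 with upper-quartile scaling, 7 with DESeq2, 0 without both Neat1 null libraries and 0 to 5 with 1 library left out. For all genes, 2356 at first, it was 3589 with DESeq2, 7 without both Neat1 null libraries and 11 to 2965 with 1 library left out. The cause was not tested. The log2 fold change of Neat1 without both was -6.34 (edgeR adjusted p = 0.0899). Of the members' log2 fold changes, 145 of 150 kept their sign over all alternatives, which reuse the same counts and so give no separate support. The exceptions were all of Jag2, which had 0.0007 with the replicate block and -0.37 to 0.28 with 1 library left out. Same-numbered libraries correlated at 0.317, -0.258, -0.0140 and 0.107 in their deviations, and not every library correlated best with its own number, so the numbers were not taken as pairs. Levels of Notch4, Dll1 in Neat1 null cells, Hey1 and Heyl rest on few counts.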
